A study of Mus musculus with 10 samples.

Results

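Collagen genes were taken as the genes whose symbol in the array's probe annotation has the form Col, a number, a and a number. They numbered 36 of the 12393 genes on the array, read by 58 of its 22690 probe sets. A further 8 collagen genes of the RefSeq gene table were not analysed here. Messenger RNA had been measured on 10 Affymetrix arrays of primary mouse embryonic fibroblasts, connective tissue cells grown from E13.5 embryos of mixed C57BL/6 and 129 background. All groups had received Cre recombinase, the enzyme that cuts out flanked gene segments, by retroviral infection, and all had been selected in puromycin at 2.5 ug/ml. The groups were wild type (3 arrays), Snf5-/- (3 arrays), which lack a core subunit of the SWI/SNF chromatin remodelling complex encoded by Smarcb1, and Brg1-/- (4 arrays), which lack an ATPase of that complex encoded by Smarca4. The labels do not say whether replicates came from separate embryos or cultures, nor how many cells escaped recombination, and p-values here therefore reflect only how far these arrays scattered.

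Collagens are secreted trimers of alpha chains wound into a helix. The fibrillar collagens (types I, II, III, V and XI) build the banded fibrils of connective tissue, the basement membrane collagens (types IV, XV and XVIII) form or attach to sheets under epithelia and vessels, and the FACIT collagens bind along the surface of fibrils. The remaining types include the beaded filaments of type VI, the anchoring fibrils of type VII, the networks of types VIII and X and membrane-spanning forms. Fibroblasts are a main source of types I, III, V and VI. The series concerns how SWI/SNF acts at its target promoters, and the comparisons here ask how the messenger RNA of each collagen differed when either subunit was lost.

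Levels are given as quantile-normalized intensity, which puts all arrays on 1 distribution, and differences as log2 changes from a limma fit of all probe sets. A probe set was tested if it reached the 40th percentile of its array in at least 3 arrays. A gene was read from its brightest probe set and called where its p, adjusted by the Benjamini-Hochberg method over all probe sets tested, was under 0.05. Of the 36 collagen genes, 26 had a tested probe set, among 8397 genes tested, and 21 of these 26 had passed the filter in all 3 wild type arrays. On the scale as deposited, the median over all probe sets differed from wild type by -0.30 in Snf5-/- and -0.47 in Brg1-/- (log2), against -0.01 and 0.00 after quantile normalization. Every change below is therefore relative to the array as a whole, and collagen genes whose call differs on the deposited scale are named. The targeted transcripts followed the labels. Smarcb1 measured 741 to 832 over the wild type arrays and 297 to 299 over those of Snf5-/-. Smarca4 measured 2062 to 2407 over the wild type arrays, and 461, 471, 446 and 685 over those of Brg1-/-.

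The fourth Brg1-/- array stood apart for the collagens. It held the highest Brg1-/- value for 19 of the 26 tested collagen genes, against 29.8% of all genes tested, and it was also the Brg1-/- array with the most Smarca4 signal. Collagen results in Brg1-/- whose call depends on it are therefore given with and without it. Gene lists whose calls are counted are counted without it as well. The part that this array's RNA or its remaining Smarca4 signal plays in them was not tested.

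In Snf5-/- fibroblasts 9 of the 26 tested collagen genes rose and 1 fell. The share that rose was 34.6%, against 10.1% of all genes tested, and the share that fell was 3.85%, against 7.05%. The median log2 change of the 26 genes was 0.42, against 0.02 over all genes tested, and 21 of the 26 lay above 0. On the deposited scale 6 rose and 2 fell, against 3.13% and 15.8% of all genes tested, with a median of 0.17 where that of all genes was -0.27. In Brg1-/- fibroblasts 3 collagen genes rose (11.5%, against 14.2% of all genes tested) and 2 fell (7.69%, against 12.2%), so both shares lay below those over all genes. On the deposited scale 1 rose and 10 fell there, against 3.32% and 43.1% of all genes tested, and the median of -0.38 lay beside -0.47 over all genes, so the direction of the collagen median in Brg1-/- (0.09 after quantile normalization) depended on the scale. Without the fourth Brg1-/- array 2 collagen genes rose and 5 fell in Brg1-/-, which is 7.69% and 19.2%, against 13.6% and 11.7% of all genes tested, and the median was -0.04.

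**Figure D1:**
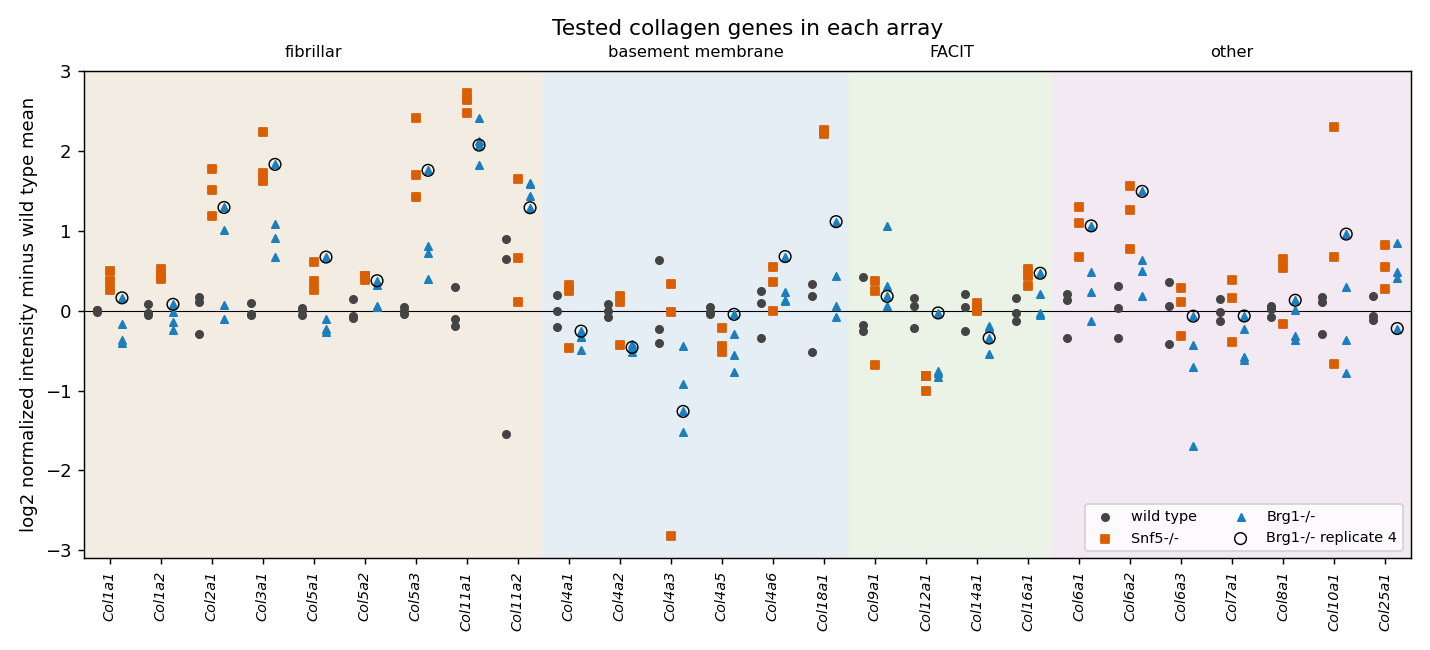
Log2 normalized intensity of each of the 26 tested collagen genes (horizontal axis, grouped by class) in each of the 10 arrays, minus the wild type mean of that gene. Circles are wild type, squares Snf5-/- and triangles Brg1-/- arrays, and ringed triangles are the fourth Brg1-/- array, which is the highest Brg1-/- array for 19 genes.

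The fibrillar class held 6 of the 9 rises in Snf5-/- and all 3 in Brg1-/- on the quantile-normalized scale. All 9 fibrillar genes on the array were tested, although Col11a2 had reached the filter in only 1 wild type array. In Snf5-/- 6 of the 9 rose (66.7%, against 10.1% of all genes tested) and 3 did not pass, with log2 changes from 0.38 to 2.61. In Brg1-/- 3 rose (33.3%, against 14.2%) and 6 did not pass, with changes from -0.19 to 2.11. By limma no fibrillar gene fell in either mutant on that scale, against 7.05% and 12.2% of all genes tested. At an unadjusted p under 0.05, 0 fell as well, against 1153 and 1525 of all 8397 genes. Deposited values gave 4 higher in Snf5-/- (44.4%, against 3.13% of all genes tested) and 0 lower, against 15.8%. In Brg1-/- they gave 1 higher (11.1%, against 3.32%) and 3 lower (33.3%, against 43.1%). Without the fourth Brg1-/- array 2 fibrillar genes rose in Brg1-/- (22.2%, against 13.6% of all genes tested) and 1, Col1a1, fell (11.1%, against 11.7%).

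Col11a1 encodes the alpha 1 chain of type XI collagen, which starts and limits the width of thin fibrils, best known from cartilage. Its normalized intensity (probe set 1418599_at) was 738, 528 and 560.4 in wild type arrays, as against 3341, 3771 and 3978 in Snf5-/- arrays and 3198, 2141, 2627 and 2537 in Brg1-/- arrays. Every mutant array lay above every wild type array, and the Snf5-/- arrays lay above the Brg1-/- arrays. The log2 change was 2.61 ± 0.16 (SE) in Snf5-/- (limma adjusted p = 6.33e-06) and 2.11 ± 0.15 in Brg1-/- (adjusted p = 4.47e-06), or 2.13 ± 0.16 without the fourth array. Its other probe set rose as well, by 2.32 and 1.53. The difference between the mutants was -0.50 ± 0.15 and did not pass (limma adjusted p = 0.0783), while that of the second probe set, -0.79 ± 0.17, did (adjusted p = 0.0288). Col11a1 was the only collagen gene called higher than wild type on both scales in both mutants.

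Col3a1 encodes the single chain of type III collagen, a main fibril component of skin, vessel wall and other extensible tissue. It (1427883_a_at) measured 4364, 3944 and 3990 in wild type, against 13500, 12610 and 19370 in Snf5-/- and 6525, 7725, 8718 and 14600 in Brg1-/-. No mutant array overlapped wild type, and the fourth Brg1-/- array lay within the range of Snf5-/-. Col3a1 rose by 1.86 ± 0.24 (SE, log2) in Snf5-/- (limma adjusted p = 0.000398) and by 1.13 ± 0.23 in Brg1-/- (adjusted p = 0.0037), or 0.89 ± 0.15 without the fourth array (adjusted p = 0.00197). The rise in Brg1-/- was lost on the deposited scale, where the change was 0.52 (limma adjusted p = 0.0698). A second probe set, 1427884_at, read 277, 256 and 233 in wild type arrays, as against 851, 755 and 1226 in Snf5-/- arrays and 287, 287, 292 and 812 in Brg1-/- arrays. It had the same rise in Snf5-/- (1.86), but in Brg1-/- its change of 0.56 ± 0.32 did not pass (limma adjusted p = 0.238) and rested on the fourth array.

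Col5a3 encodes the alpha 3 chain of type V collagen, a minor chain found inside heterotypic fibrils. Its intensity (1419703_at) was 243, 249 and 258 in wild type, against 672, 816 and 1330.0 in Snf5-/- and 329, 412, 437 and 847 in Brg1-/-. The wild type arrays lay close together and below all 7 mutant arrays. The change was 1.85 ± 0.31 (SE, log2) in Snf5-/- (limma adjusted p = 0.00235) and 0.92 ± 0.29 in Brg1-/- (adjusted p = 0.0369). In Brg1-/- the call was lost without the fourth array (0.64 ± 0.22, limma adjusted p = 0.0577) and on the deposited scale (0.47, adjusted p = 0.199). It was also lost without any 1 wild type array or without Brg1-/- replicate 2 or 3, with limma adjusted p of up to 0.0981, and with no filter on low intensity or no intensity trend in the fit.

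Col2a1 encodes the chain of type II collagen, the main fibril of cartilage. It (1450567_a_at) measured 305, 221 and 289.9 in wild type arrays, as against 926, 613 and 768 in Snf5-/- arrays and 545, 282, 249.7 and 660.0 in Brg1-/- arrays. The Snf5-/- arrays were all above wild type, while the Brg1-/- arrays overlapped both groups. Col2a1 rose by 1.49 ± 0.33 (SE, log2) in Snf5-/- (limma adjusted p = 0.00982), while in Brg1-/- the change was 0.57 ± 0.31 and missed the threshold (adjusted p = 0.201), as did the 0.33 found without the fourth array. Of the 9 chondrocyte markers on the array other than collagens, Cnmd and Epyc lay at or below background, taken as the highest of 27 bacterial control probe sets, in every array, and between 3 and 7 markers lay above it in any array. Their summed intensity was 359 to 497 in wild type, against 406 to 633 in Snf5-/- and 439 to 597 in Brg1-/-. Among them Matn3, a cartilage matrix protein, rose in Snf5-/- by 1.54 (limma adjusted p = 0.0291), and Sox9, the cartilage transcription factor, measured 108 to 133 in wild type and 84.8 to 100.5 in Snf5-/- (-0.35, adjusted p = 0.369). The part of such cells in these changes was not tested, and in bulk RNA more cells of a type and more RNA per cell cannot be told apart.

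The type I chains and Col5a2, near the top of the intensity range, had smaller log2 changes. Col1a2 (1450857_a_at), one of the chains of type I collagen, measured 16510, 17810 and 16250 in wild type arrays, as against 22180, 22820 and 24220 in Snf5-/- arrays and 14260, 15330, 16620 and 17810 in Brg1-/- arrays. The Snf5-/- arrays stood above all others and the Brg1-/- arrays overlapped wild type. Col1a2 rose by 0.45 ± 0.08 (SE, log2) in Snf5-/- (limma adjusted p = 0.00334), a call lost on the deposited scale (0.30, adjusted p = 0.0628). Col1a1 (1423669_at), its partner chain, measured 16460, 16420 and 16110 in wild type, against 23120, 21180 and 19510 in Snf5-/- and 14600, 12300, 12630 and 18270 in Brg1-/-. Its Snf5-/- arrays also lay above wild type, but the change of 0.38 ± 0.12 missed the threshold (limma adjusted p = 0.0575). That of its dimmer probe set, 0.61 ± 0.19, passed (adjusted p = 0.0472), but not on the deposited scale (0.25, adjusted p = 0.307). Within an array the log2 ratio of Col1a1 to Col1a2 ran from -0.12 to 0.00 in wild type, -0.31 to 0.06 in Snf5-/- and -0.40 to 0.04 in Brg1-/-, so the ranges overlapped. With deposited values both type I chains were called lower in Brg1-/-, Col1a1 by -0.55 and Col1a2 by -0.39 (limma adjusted p = 0.00203 and 0.00608), against -0.19 and -0.08 after quantile normalization, neither of which passed.

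Col5a2 (1422437_at), the alpha 2 chain of type V collagen, read 15520, 13400 and 13190 in wild type arrays, as against 18340, 18870 and 18870 in Snf5-/- arrays and 17480, 14620, 14440 and 18170 in Brg1-/- arrays. The Snf5-/- arrays were again the highest, without overlap with wild type. It rose by 0.42 ± 0.10 (SE, log2) in Snf5-/- (limma adjusted p = 0.0126) but did not pass on the deposited scale (0.21, adjusted p = 0.213), nor without wild type replicate 2 or 3 (adjusted p of up to 0.0565) or with no intensity trend. In Brg1-/- its change was 0.20 (limma adjusted p = 0.125), whereas its dimmer probe set rose by 0.62 (adjusted p = 0.00705). That rise was not called on the deposited scale (0.06, limma adjusted p = 0.828). The main probe sets of Col1a1, Col1a2 and Col5a2 lay above the 99th percentile in every array, and the dimmer probe set of each gave the larger change in Snf5-/- (0.61, 0.69 and 0.94). Of the remaining fibrillar genes, Col5a1, the alpha 1 chain of type V, changed by 0.41 ± 0.20 in Snf5-/- and 0.02 ± 0.19 in Brg1-/-, and neither passed (limma adjusted p = 0.186 and 0.957). With deposited values Col5a1 was called lower in Brg1-/- (-0.66, limma adjusted p = 0.0122). Col11a2, the alpha 2 chain of type XI, was dim, at 22.1 to 120 in wild type, against 69.3 to 203 in Snf5-/- and 158 to 196 in Brg1-/-, and did not pass in either mutant (limma adjusted p = 0.36 and 0.0579).

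**Figure D2:**
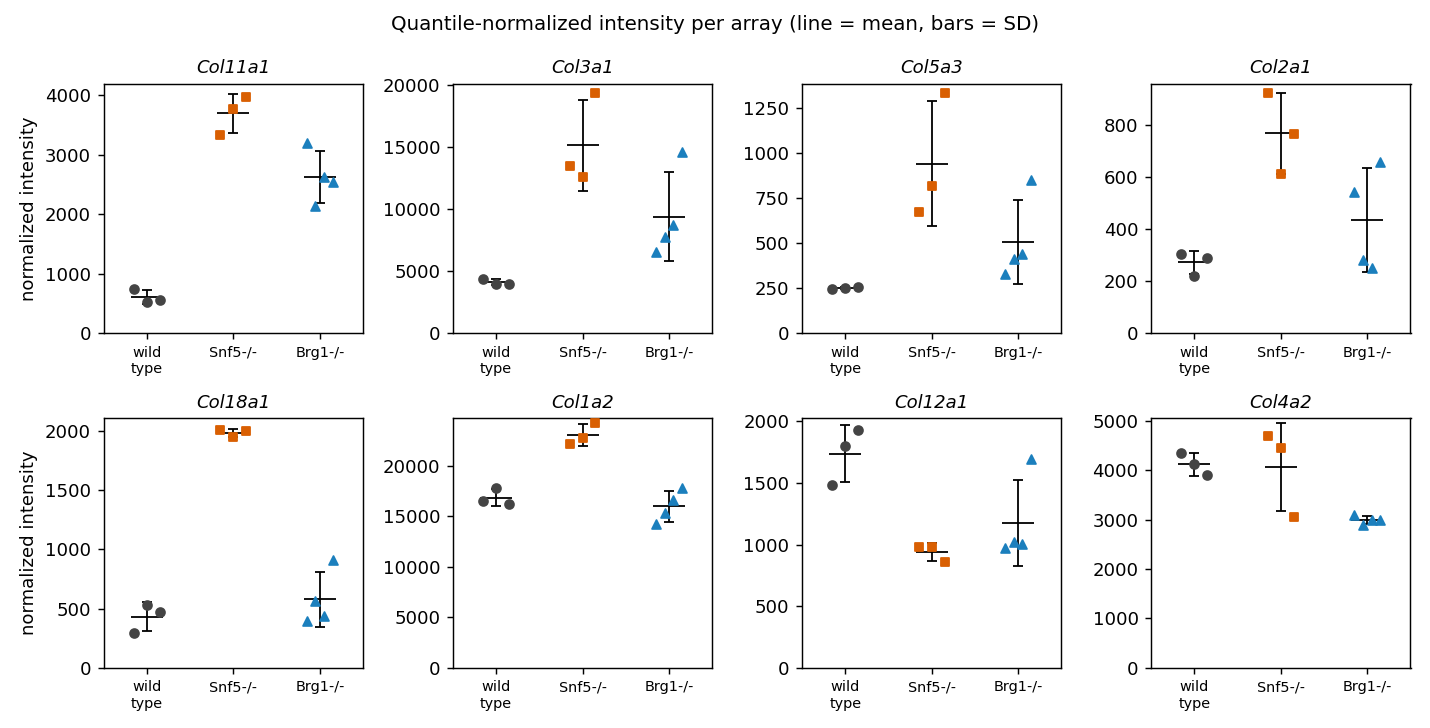
Quantile-normalized intensity (vertical axis, from 0) of 8 collagen genes in each array, with circles for wild type, squares for Snf5-/- and triangles for Brg1-/-. Horizontal lines are group means and bars are SD (n = 3, 3 and 4). Col18a1 lies near 2000 in all Snf5-/- arrays and at 908 or below in all others.

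Among the basement membrane collagens, 6 of 8 genes were tested. In Snf5-/- 1 rose (16.7%, against 10.1% of all genes tested), and in Brg1-/- 1 fell (16.7%, against 12.2%). Medians were -0.01 in Snf5-/- and -0.38 in Brg1-/- (log2), or -0.35 and -0.96 on the deposited scale. Without the fourth Brg1-/- array 2 fell in Brg1-/- (33.3%, against 11.7% of all genes tested). Col18a1 encodes the proteoglycan collagen XVIII, whose end fragment is endostatin, an inhibitor of vessel growth. Its intensity (1426955_at) was 293, 528 and 474 in wild type arrays, as against 2010, 1947 and 2000 in Snf5-/- arrays and 397, 566, 438 and 908 in Brg1-/- arrays. The Snf5-/- arrays agreed closely with each other and stood above all 7 other arrays. Col18a1 rose by 2.25 ± 0.28 (SE, log2) in Snf5-/- (limma adjusted p = 0.000315), and its Brg1-/- value of 0.38 ± 0.26 missed the threshold (adjusted p = 0.318), as did the 0.14 found without the fourth array. Its second probe set rose in both, by 1.96 (limma adjusted p = 0.000394) and by 0.70 (adjusted p = 0.0498). In Brg1-/- the arrays of this probe set overlapped wild type, and the rise was not called on the deposited scale (0.25, limma adjusted p = 0.368).

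The alpha 1 and alpha 2 chains of type IV collagen make up most basement membranes. Col4a2 (1424051_at) measured 4361, 4128 and 3896 in wild type, against 4692, 4450.0 and 3051 in Snf5-/- and 3097, 2892, 2994 and 3001 in Brg1-/-. The Brg1-/- arrays lay below all wild type arrays and, unlike those of most collagens, within a narrow range that included the fourth array. Col4a2 fell by 0.46 ± 0.13 (SE, log2) in Brg1-/- (limma adjusted p = 0.0198), and this call was lost without wild type replicate 1 or 2 (adjusted p of up to 0.0769). Col4a1, its partner, measured 8314, 7240.0 and 6297 in wild type and 5754, 5746, 5148 and 6063 in Brg1-/-, without overlap, but the change of -0.35 ± 0.16 did not pass (limma adjusted p = 0.139). On the deposited scale Col4a1 was called lower in Brg1-/-, by -0.96 (limma adjusted p = 0.000485). The log2 ratio of Col4a1 to Col4a2 within an array was 0.69 to 0.93 in wild type arrays, as against 0.78 to 0.95 in Snf5-/- arrays and 0.78 to 1.01 in Brg1-/- arrays. Col4a5, a chain of kidney and other specialised basement membranes, changed by -0.41 in Brg1-/- on its brightest probe set (limma adjusted p = 0.0702) and by -0.69 on the other (adjusted p = 0.00916). With deposited values the brightest probe set of Col4a5 was called lower in both mutants, at -0.72 in Snf5-/- and -0.95 in Brg1-/- (limma adjusted p = 0.0319 and 0.00185). Col4a3 and Col4a6 were dim, at 15.03 to 165 and 93.0 to 189, and did not pass in either mutant.

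Of the 9 FACIT genes, 4 were tested. In each mutant 1 fell (25%, against 7.05% of all genes tested in Snf5-/- and 12.2% in Brg1-/-). Without the fourth Brg1-/- array 1 fell in Brg1-/- as well (25%, against 11.7%). Col12a1 (1427391_a_at), a FACIT chain that coats type I fibrils, measured 1480.0, 1802 and 1926 in wild type, against 978, 982 and 856 in Snf5-/- and 974, 1022, 1008 and 1693 in Brg1-/-. All 3 Snf5-/- arrays and 3 of the 4 Brg1-/- arrays lay below wild type, and the fourth Brg1-/- array lay inside the wild type range. Col12a1 fell by 0.88 ± 0.19 (SE, log2) in Snf5-/- (limma adjusted p = 0.00974) and by 0.60 ± 0.18 in Brg1-/- (adjusted p = 0.0308). Without the fourth array the change in Brg1-/- was -0.79 ± 0.12 (limma adjusted p = 0.000983), while leaving out wild type replicate 2 or 3 or any other Brg1-/- array ended the call (adjusted p of up to 0.118), as did a fit with no intensity trend. Read from brightest probe sets, Col12a1 was the only collagen gene called lower than wild type in both mutants on the quantile-normalized scale. Col16a1, Col14a1 and Col9a1, which are further FACIT chains, changed by 0.42, 0.04 and -0.02 in Snf5-/- and did not pass.

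Of the 10 other collagen genes, 7 were tested, and 2 rose in Snf5-/- (28.6%, against 10.1% of all genes tested), both of them chains of type VI collagen. In Brg1-/- 0 rose and 0 fell, against 14.2% and 12.2% of all genes tested. Without the fourth array 1 fell there (14.3%, against 11.7%). Col6a1 (1448590_at) measured 1140.0, 1675 and 1580.0 in wild type arrays, as against 3091, 2302 and 3549 in Snf5-/- arrays and 1327, 2024, 1696 and 3020.0 in Brg1-/- arrays. Col6a2 (1452250_a_at) measured 711, 919 and 1117 in wild type, against 2152, 1533 and 2667 in Snf5-/- and 1026, 1397, 1270.0 and 2539 in Brg1-/-. For both, the Snf5-/- arrays lay above wild type, and the fourth Brg1-/- array lay among them. In Snf5-/- Col6a1 rose by 1.02 ± 0.26 (SE, log2, limma adjusted p = 0.0211), which the deposited scale did not call (0.70, adjusted p = 0.0612), and Col6a2 rose by 1.20 ± 0.30 (adjusted p = 0.0183). Both calls were lost without wild type replicate 1 or without Snf5-/- replicate 1 or 3, and that of Col6a2 also without wild type replicate 2, with limma adjusted p of up to 0.0788 for Col6a1 and 0.0692 for Col6a2. In Brg1-/- Col6a1 changed by 0.41 ± 0.25 and Col6a2 by 0.70 ± 0.28, and neither passed (limma adjusted p = 0.245 and 0.0862). The second probe set of Col6a2 was called higher in Brg1-/-, at 0.75 ± 0.21 (limma adjusted p = 0.0191), but not on the deposited scale (0.20, adjusted p = 0.454).

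Col6a3, the largest chain of type VI collagen, did not move with its partners. It measured 1382, 2373 and 1925 in wild type arrays, as against 2247, 1488 and 1991 in Snf5-/- arrays and 569, 1378, 1129 and 1763 in Brg1-/- arrays, with changes of 0.03 ± 0.34 and -0.73 ± 0.32 (SE, log2) that did not pass (limma adjusted p = 0.969 and 0.119). Col6a3 was called lower in Brg1-/- on the deposited scale (-1.29, limma adjusted p = 0.00194) and without the fourth array (-0.95, adjusted p = 0.0449). Within an array the log2 ratio of Col6a1 to Col6a3 was -0.50 to -0.28 in wild type, against 0.46 to 0.83 in Snf5-/- and 0.56 to 1.22 in Brg1-/-. The wild type range therefore lay below all 7 mutant arrays, the fourth Brg1-/- array included. This ratio was picked after its values were seen and was not tested.

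The remaining tested genes gave no call on their brightest probe set after quantile normalization. Col8a1, a network-forming chain of vessel walls, was read oppositely by its probe sets in Snf5-/-, at 0.34 ± 0.20 (limma adjusted p = 0.262) and -0.69 ± 0.17 (adjusted p = 0.0164), so its direction there is uncertain. In Brg1-/- its dimmer probe set was called lower too, at -0.51 ± 0.16 (limma adjusted p = 0.032), while the brightest was not, at -0.13 ± 0.18 (adjusted p = 0.639). Col10a1, the network collagen of hypertrophic cartilage, scattered widely in Snf5-/-, at 427, 169 and 1323 against 218, 303 and 289.6 in wild type. Col7a1, of anchoring fibrils, and Col25a1, a membrane-spanning form, changed by 0.05 and 0.55 in Snf5-/- and by -0.37 and 0.38 in Brg1-/- without passing. With deposited values Col7a1 and Col8a1 were called lower in Brg1-/-, by -0.82 and -0.71 (limma adjusted p = 0.00467 and 0.0111). The 10 genes with no tested probe set were Col15a1, Col4a4, Col19a1, Col20a1, Col22a1, Col9a2, Col9a3, Col13a1, Col17a1 and Col26a1, and none of their 16 probe sets exceeded 97.3 in any array.

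**Figure D3:**
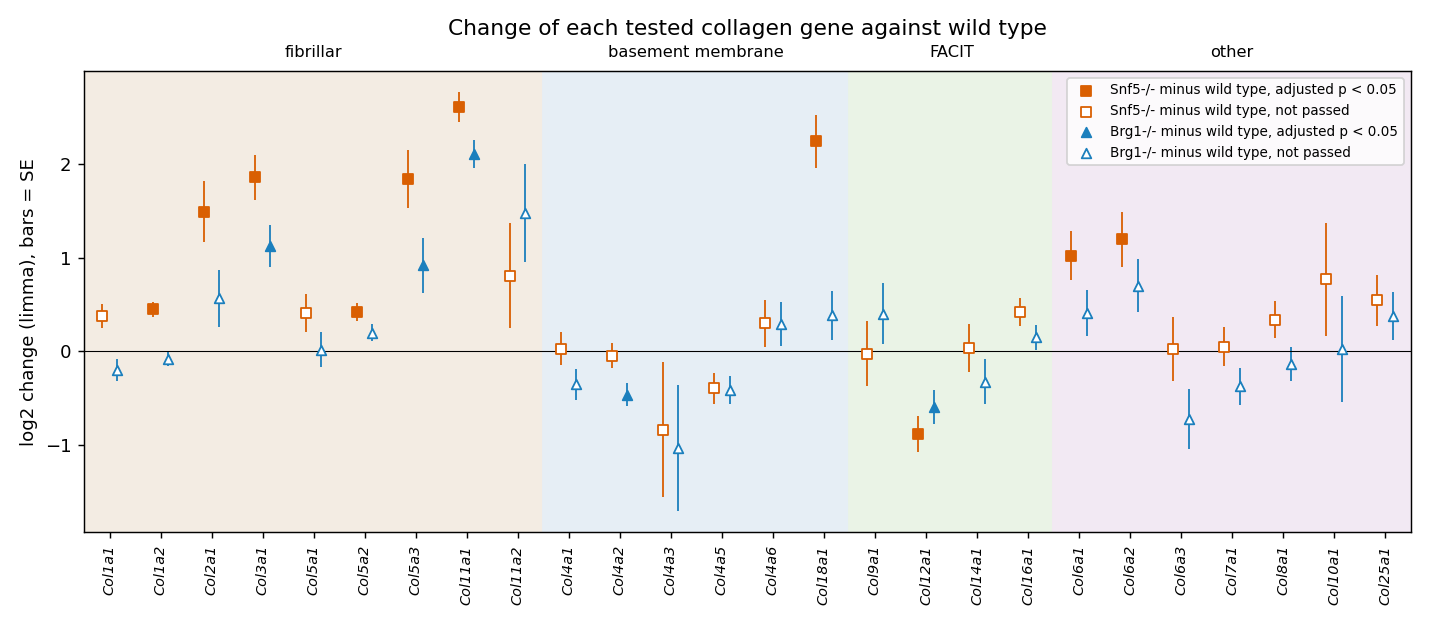
Log2 change against wild type (limma, bars are SE) of the 26 tested collagen genes, with squares for Snf5-/- and triangles for Brg1-/-, filled where adjusted p passed 0.05. Filled points above 0 lie mostly in the fibrillar class on the quantile-normalized scale. Col1a1, Col1a2 and Col5a1 were called lower in Brg1-/- with deposited values.

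Where a gene had several tested probe sets, which held for 11 genes, they gave the same direction for 10 genes in Snf5-/-, 8 in Brg1-/- and 10 between the mutants. They gave the same call for 9, 5 and 8 of the 11. On the quantile-normalized scale the Snf5-/- calls of Col11a1, Col18a1, Col3a1, Col1a2, Col5a2 and Col6a2 were each made by every tested probe set of the gene.

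A direct comparison of the mutants asks whether loss of either subunit left collagen messenger RNA at the same level. In Brg1-/- 3 of the 26 genes were lower than in Snf5-/- (11.5%, against 2.11% of all genes tested). By limma 0 were higher, against 1.85% of all genes tested. At an unadjusted limma p under 0.05, 13 were lower and 0 higher, against 954 and 836 of all 8397 genes tested. The median difference was -0.42, against -0.01 over all genes tested, and 23 of the 26 lay below 0. Deposited values gave 8 lower and 0 higher, against 3.23% and 0.333% of all genes tested, and the genes called only there were Col2a1, Col3a1, Col5a3, Col4a1 and Col4a2. The called genes were Col18a1, at -1.86 ± 0.26 (SE, log2, limma adjusted p = 0.00475), Col1a2, at -0.53 ± 0.08 (adjusted p = 0.00475), and Col1a1, at -0.57 ± 0.12 (adjusted p = 0.0226). For each of them all 4 Brg1-/- arrays lay below all 3 Snf5-/- arrays. The call of Col1a1 was lost without Snf5-/- replicate 1 or 2 or without Brg1-/- replicate 2 or 3 (limma adjusted p of up to 0.0707), and also with no intensity trend or with only those groups in the fit (up to 0.0741).

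Without the fourth Brg1-/- array the difference between the mutants was called for 8 collagen genes in place of 3, all lower in Brg1-/-. That is 30.8%, against 2.76% of all genes tested. The added genes were Col2a1 (-1.18), Col5a3 (-1.21), Col3a1 (-0.96), Col6a1 (-0.83) and Col5a1 (-0.62), with limma adjusted p from 0.0057 for Col5a1 to 0.0427 for Col6a1. Col18a1 and Col1a2 then stood at -2.12 and -0.57. Against wild type, the falls in Brg1-/- then numbered 5 and included Col1a1 (-0.31), Col4a5 (-0.54) and Col6a3 (-0.95). Because the fit shares 1 estimate of the spread, leaving out this array also raised the count of rises in Snf5-/- from 9 to 12, with Col16a1, Col1a1 and Col5a1 added. The 12 are 46.2%, against 10.8% of all genes tested.

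The promoters of the fibrillar genes that rose in both mutants, and of Col18a1, whose mutants differed most, are shown so that genes with like changes can be read side by side. They are the 250 bases before each annotated transcript start in RefSeq (mouse GRCm38.p6), written 5′ to 3′ in the direction of transcription. Such a window was available here for 27 of the 36 collagen genes, and for Col18a1 there were 2 starts. Capitals mark the letters of the motifs searched on both strands, namely the core element TATAAA, the box named for its letters CCAAT, the GC box spelled GGGCGG, and the AP-1 element spelled TGANTCA, where N is any base. No marked match overlaps another.
Col11a1, chr3:114030290-114030539, plus strand: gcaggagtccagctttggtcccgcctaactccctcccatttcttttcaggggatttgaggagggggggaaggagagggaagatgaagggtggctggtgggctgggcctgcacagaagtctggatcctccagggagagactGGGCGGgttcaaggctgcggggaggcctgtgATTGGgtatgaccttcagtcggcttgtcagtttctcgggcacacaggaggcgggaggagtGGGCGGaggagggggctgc
Col3a1, chr1:45311288-45311537, plus strand: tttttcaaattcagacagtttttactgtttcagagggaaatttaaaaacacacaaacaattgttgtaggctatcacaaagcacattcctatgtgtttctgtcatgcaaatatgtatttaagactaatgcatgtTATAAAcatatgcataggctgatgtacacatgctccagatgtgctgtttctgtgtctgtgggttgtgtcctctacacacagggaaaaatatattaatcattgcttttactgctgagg
Col5a3, chr9:20815068-20815317, minus strand: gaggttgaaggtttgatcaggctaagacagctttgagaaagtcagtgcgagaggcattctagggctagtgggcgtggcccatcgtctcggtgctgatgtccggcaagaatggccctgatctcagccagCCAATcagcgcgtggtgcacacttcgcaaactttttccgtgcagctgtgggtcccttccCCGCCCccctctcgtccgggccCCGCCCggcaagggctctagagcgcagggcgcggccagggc
Col18a1 outer start, chr10:77166531-77166780, minus strand: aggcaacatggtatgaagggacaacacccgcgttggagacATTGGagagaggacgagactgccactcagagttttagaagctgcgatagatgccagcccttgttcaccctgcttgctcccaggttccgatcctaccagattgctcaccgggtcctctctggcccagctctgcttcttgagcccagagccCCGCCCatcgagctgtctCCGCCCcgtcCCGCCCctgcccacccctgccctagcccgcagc
Col18a1 inner start, chr10:77113706-77113955, minus strand: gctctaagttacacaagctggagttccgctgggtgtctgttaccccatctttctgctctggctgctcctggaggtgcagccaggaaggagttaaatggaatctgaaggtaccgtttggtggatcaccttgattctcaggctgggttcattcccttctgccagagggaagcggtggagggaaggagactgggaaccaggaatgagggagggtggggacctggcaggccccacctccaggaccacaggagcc
The windows of Col11a1, Col5a3 and the outer start of Col18a1 each held 1 CCAAT box and 2 or 3 GC boxes. That of Col3a1 held a TATA element, 117 to 112 bases before the annotated start, and none of the other motifs, and the inner start of Col18a1 held none of the 4. G and C made up 62.4% of the Col11a1 window, 62.8% of that of Col5a3 and 62% of that of the outer Col18a1 start, but 35.2% of that of Col3a1, against a median of 52.4% over all windows.

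Over the 27 collagen genes with a window, a GC box stood in 15, a CCAAT box in 12, a TATA element in 5 and an AP-1 element in 1, that of Col6a1. Counted by window, these motifs stood in 16, 12, 5 and 1 of 30 collagen windows. Among all 32851 promoter windows of the same length they stood in 32.7%, 33.8%, 12.4% and 6.75%. The genes that rose in both mutants thus shared no single motif of those searched. A match is a run of letters and not a measured binding site.

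**Figure D4:**
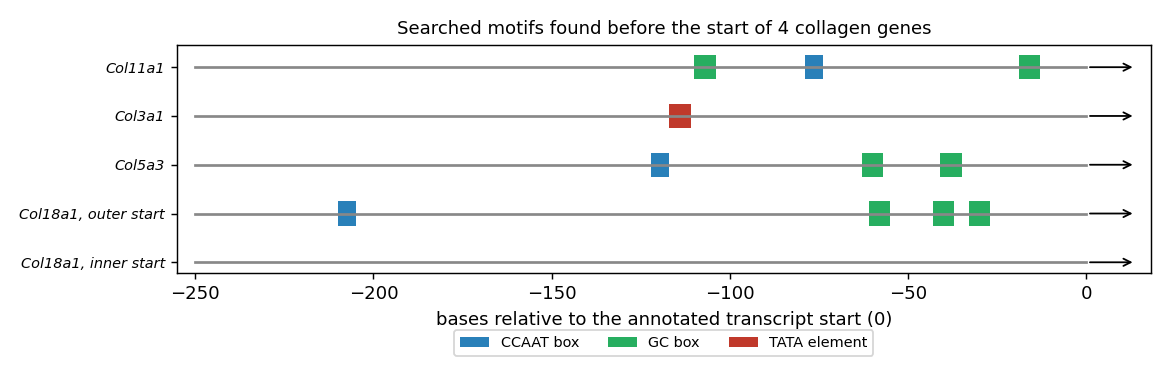
Matches to the searched motifs in the 250 bases before the annotated start (0) of Col11a1, Col3a1, Col5a3 and both starts of Col18a1, drawn to scale in bases, with transcription to the right. Col3a1 has a TATA element alone, and the inner start of Col18a1 has no match.

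Genes that make, fold and cross-link collagen were called in both directions. Of 26 such genes on the array 25 were tested. In Snf5-/- 6 rose (24%, against 10.1% of all genes tested) and 4 fell (16%, against 7.05%), with a median log2 change of 0.22. In Brg1-/- 4 rose (16%, against 14.2%) and 7 fell (28%, against 12.2%), with a median of 0.02. Without the fourth array 2 rose and 8 fell there (8% and 32%, against 13.6% and 11.7%). With deposited values 0 rose in Snf5-/- and 0 in Brg1-/-, against 3.13% and 3.32% of all genes tested. On that scale 5 fell in Snf5-/- (20%, against 15.8%) and 15 in Brg1-/- (60%, against 43.1%). At an unadjusted limma p under 0.05 there were 0 rises as well, so every rise in this list depended on the scale. Medians on the deposited scale were -0.07 and -0.53, against -0.27 and -0.47 over all genes.

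The 4 falls in Snf5-/- were of Pcolce2, Loxl4, Tll1 and Pcolce, which act outside the cell. Pcolce2, which speeds removal of the carboxyl propeptide of procollagen, fell from 496 to 548 in wild type to 105 to 159 in Snf5-/- and 123 to 185 in Brg1-/-, a change of -1.95 ± 0.20 and -1.85 ± 0.19 (SE, log2, limma adjusted p = 0.000112 and 5.1e-05). Its relative Pcolce changed by -1.08 ± 0.17 in Brg1-/- (limma adjusted p = 0.000777). The proteases that remove this propeptide were lower in Brg1-/- too, Tll1 by -1.73 ± 0.24 (limma adjusted p = 0.000369) and Bmp1 by -0.78 ± 0.14 (adjusted p = 0.00175). Loxl4, a lysyl oxidase that cross-links fibrils, changed by -1.50 ± 0.27 in Snf5-/- (limma adjusted p = 0.00369).

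The 6 rises in Snf5-/- were of Serpinh1, Crtap, Colgalt1, P4ha1, Ppib and Loxl3. Serpinh1, the collagen chaperone HSP47, measured 7410.0, 7321 and 6999 in wild type and 9391, 10710 and 10810 in Snf5-/-, a rise of 0.51 ± 0.09 (SE, log2, limma adjusted p = 0.00348). Crtap, part of the prolyl 3-hydroxylation complex, rose by 0.54 ± 0.10 (limma adjusted p = 0.00422). Neither was called on the deposited scale. Between the mutants 1 gene of the list was called, lower in Brg1-/- than in Snf5-/- (4%, against 2.11% of all genes tested). It was Sec23a, a coat protein of vesicles that leave the endoplasmic reticulum, at -0.40 ± 0.08 (limma adjusted p = 0.022). On the deposited scale Sec23a was not called (limma adjusted p = 0.0592), and P4ha2, Pcolce and Serpinh1 were called lower in Brg1-/- in its place (12%, against 3.23% of all genes tested). Without the fourth array 5 genes of the list were lower in Brg1-/- than in Snf5-/- (20%, against 2.76% of all genes tested).

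**Figure D5:**
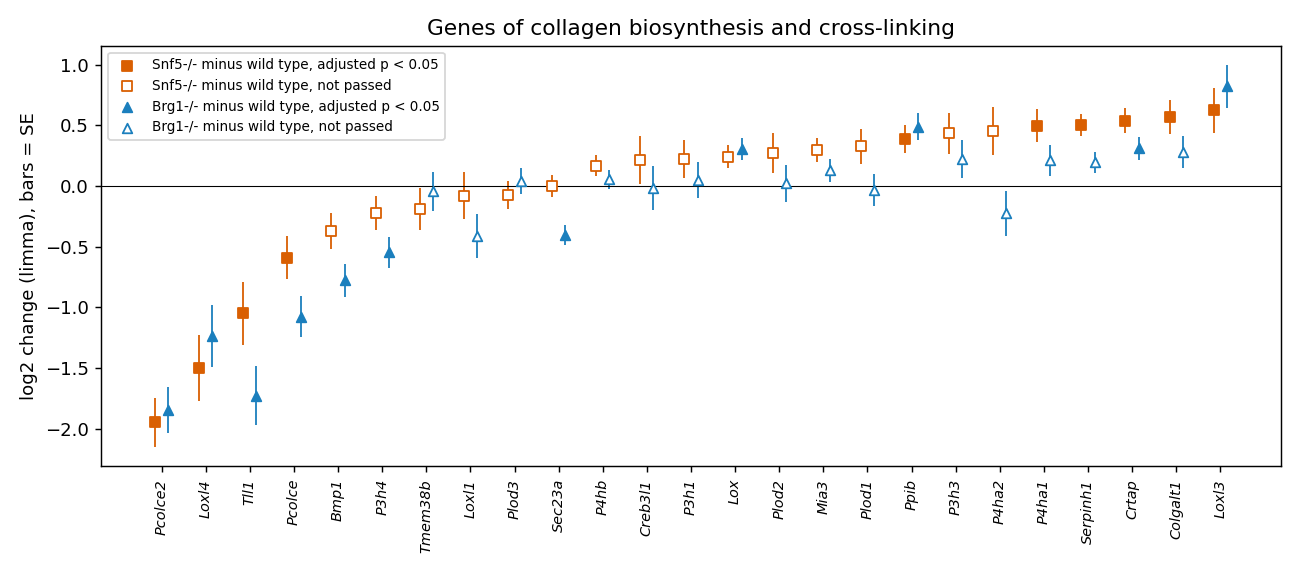
Log2 change against wild type (limma, quantile-normalized scale, bars are SE) of the 25 tested genes of collagen biosynthesis and cross-linking, ordered by their change in Snf5-/-, with squares for Snf5-/- and triangles for Brg1-/-, filled where adjusted p passed 0.05. Pcolce2 lies lowest at -1.95 and -1.85. With deposited values no gene of this list was called higher.

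Of the 7 collagen receptor genes on the array 5 were tested. Itgb1, the beta chain shared by the collagen-binding integrins, fell in both mutants, with changes of -0.60 ± 0.12 in Snf5-/- and -0.46 ± 0.11 in Brg1-/- (SE, log2, limma adjusted p = 0.0054 and 0.00985). Ddr1, a receptor tyrosine kinase activated by collagen, fell in Brg1-/- (-0.42 ± 0.11, limma adjusted p = 0.0178). These counts are 1 of 5 in Snf5-/- (20%, against 7.05% of all genes tested) and 2 of 5 in Brg1-/- (40%, against 12.2%). The counts were the same on the deposited scale, where 15.8% and 43.1% of all genes tested were lower. The share in Brg1-/- thus lay below that of all genes on that scale. The counts were also the same without the fourth array, against 7.78% and 11.7% of all genes tested. By limma 0 receptor genes rose in either mutant after quantile normalization, against 10.1% and 14.2% of all genes tested. At an unadjusted p under 0.05, 0 rose as well, against 1473 and 1751 of all 8397 genes.

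Of 25 regulators of collagen transcription on the array 20 were tested. In Snf5-/- 5 rose (25%, against 10.1% of all genes tested) and 1 fell (5%, against 7.05%). In Brg1-/- 6 rose (30%, against 14.2%) and 3 fell (15%, against 12.2%). Without the fourth array 5 rose and 2 fell there (25% and 10%, against 13.6% and 11.7%). Deposited values gave 2 rises and 3 falls in Snf5-/- (10% and 15%, against 3.13% and 15.8%), and 2 rises and 8 falls in Brg1-/- (10% and 40%, against 3.32% and 43.1%). Tgfb3, a ligand of the TGF-beta pathway that induces matrix genes, measured 2662, 2458 and 2244 in wild type arrays, as against 7725, 7240 and 6014 in Snf5-/- arrays and 7198, 5181, 5570.0 and 7198 in Brg1-/- arrays. All mutant arrays lay above wild type, with rises of 1.51 ± 0.14 and 1.35 ± 0.13 (SE, log2, limma adjusted p = 5.5e-05 and 3.9e-05). Egr1, an immediate early transcription factor, rose by 1.37 and 1.71 (limma adjusted p = 0.0017 and 0.000139). Ccn2, or connective tissue growth factor, a matrix protein induced by TGF-beta, went the other way, at -1.07 and -1.46 (limma adjusted p = 0.00253 and 0.000124). Smad4, the shared mediator of TGF-beta signals, rose by 0.69 in Snf5-/- and 0.59 in Brg1-/- (limma adjusted p = 0.00708 and 0.00754). Sp1, which binds GC boxes, rose by 0.43 and 0.54 (limma adjusted p = 0.0229 and 0.00328). Neither Smad4 nor Sp1 was called in either mutant on the deposited scale (limma adjusted p = 0.116 or more).

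The fibroblast identity of the cells was checked on 14 markers other than collagens, all of which lay above background in every array. Their summed intensity was 85370 to 89810 in wild type, 95730 to 98850 in Snf5-/-, 83550 to 85770 in the first 3 Brg1-/- arrays and 94860 in the fourth. By this sum the 3 Snf5-/- arrays and the fourth Brg1-/- array were the highest, and they also held the 4 highest values of Col3a1, Col5a3, Col2a1, Col18a1, Col6a1 and Col6a2, though not of Col11a1. The sum is carried by the brighter genes. By the mean log2 level of the 14 markers, relative to their mean over arrays, the third Brg1-/- array (0.08) stood level with the first Snf5-/- array (0.08). The part of this in the collagen results was not tested.

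Markers of other cell types moved with the groups in part. Those of mesothelium, a lining that also makes basement membrane, summed to 943 to 1116 in wild type, against 459 to 820.4 in Snf5-/- and 504 to 631 in Brg1-/-. Epithelial markers summed to 719 to 871 in wild type, against 429 to 935 in Snf5-/- and 398 to 516 in Brg1-/-. In the same order, tendon markers gave 667 to 838, 479 to 768 and 332 to 646. Endothelial markers gave 515 to 623, 464 to 516 and 414 to 575, and osteoblast markers 262 to 387, 299 to 387 and 255 to 386. Of 7 smooth muscle markers, all tested, 3 fell in Brg1-/- (Actg2, Cnn1 and Myh11), with a median log2 change of -1.05. That is 42.9%, against 12.2% of all genes tested. In Snf5-/- 2 rose (Actg2 and Smtn, 28.6%, against 10.1%), neither of them on the deposited scale. Deposited values gave 3 lower in Snf5-/- (42.9%, against 15.8%) and 5 lower in Brg1-/- (71.4%, against 43.1%). Without the fourth Brg1-/- array, normalized values gave 3 lower in Brg1-/- (42.9%, against 11.7%) and 1 higher in Snf5-/- (14.3%, against 10.8%). The sum of the 7 markers was 52790 to 53650 in wild type, against 43780 to 53910 in Snf5-/- and 40240 to 51990 in Brg1-/-. Leukocyte markers summed to 10500 in the second Snf5-/- array, of which Lyz2 gave 5495, and to 2097 to 5626 in the others. Of 9 tested, 1 rose in Snf5-/- (11.1%, against 10.1% of all genes tested) and 2 in Brg1-/- (22.2%, against 14.2%). Median log2 changes were 0.19 and -0.02. Without the fourth array 1 rose in Brg1-/- (11.1%, against 13.6%). The complement gene C1qb was higher than wild type in every mutant array, by 1.85 in Snf5-/- and 1.39 in Brg1-/- (limma adjusted p = 0.00842 and 0.0163). C1qc rose in Brg1-/- (limma adjusted p = 0.0437), though not without the fourth array. The other tested markers did not pass in Brg1-/-, at 2.50 for C1qa, 0.01 for Adgre1 and -0.50 to -0.02 for Cd53, Lyz2, Laptm5, Cd68 and Csf1r. The second Snf5-/- array was the highest Snf5-/- array for Col5a1 (7803 against 6635 and 6164), Col7a1, Col8a1, Col9a1 and Col12a1 on their brightest probe sets. It was not the highest for Col3a1, Col5a3, Col2a1, Col18a1, Col6a1 or Col6a2. The part of these cell types in the collagen results was not tested.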

How the data were processed

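The deposited values are MAS5 probe set intensities on a linear scale, 1 column per array, credited to MAS5 by the submitters' processing notes. Its version, scaling target and any filters are not given in the sources used here. Array medians as deposited ranged from 145.6 to 233.6, so log2 values of the deposited intensities were quantile-normalized (limma 3.58.1 in R 4.3.3, normalizeQuantiles) with no pseudocount, and the log2 deposited scale was analysed beside them. After removal of 64 control probe sets, 14506 probe sets that reached the 40th percentile on 3 or more arrays entered 1 limma fit (lmFit, eBayes with an intensity trend, two-sided) with 3 group means and 7 residual degrees of freedom. P-values were adjusted by Benjamini-Hochberg over all probe sets within each of 3 comparisons, with a threshold of 0.05. The fit was tested on simulated data. Precision is limited by the few arrays per group.

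Genes were named from the platform annotation supplied with the arrays, in which 20380 probe sets carry 1 symbol and 691 several, and a gene was read from its probe set of highest mean. Background on an array was the brightest among 27 B. subtilis control probe sets. Values in every array are given for called collagen genes whose arrays do not overlap in that comparison, and up to 4 members of each pathway list with the smallest adjusted p are named. The members, the lists and the rules were chosen with earlier results of these data known. No unmapped column of values was present. Same-numbered arrays of different groups did not deviate together (correlations of -0.09 to 0.12), so the numbers were not used as pairs. Alternatives were the deposited scale, median centring, other filters, a pseudocount, the variance model, the arrays in the fit and each array left out. Promoter windows are RefSeq sequences of GRCm38.p6, handled in Python 3.11.15.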

Additional observations from a re-analysis of the deposited data

Results flagged for a closer look

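In the 4 Brg1-/- arrays, the gap between the highest array and its nearest neighbour, as a share of the group's range, exceeded Dixon's critical value for 3 of 38 tested collagen probe sets. They were those of Col12a1 (0.913), the second probe set of Col3a1 (0.983) and the second probe set of Col4a5 (0.866), and the array was Brg1-/- replicate 4 each time. Among the targeted genes the same array stood apart for Smarca4 (0.871) and Smarcb1 (0.833). Chance alone marks about 1 group in 20. For Col12a1 that array read 1693 against 974 to 1022, for the second probe set of Col3a1 812 against 287 to 292, for that of Col4a5 1004 against 669 to 707, and for Smarca4 685 against 446 to 471.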

How the results depend on the processing

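Over 78 collagen gene results and 19 alternative settings, 1361 of 1455 values kept their state, called or not called. This number includes results that were called in neither setting. A call was lost in 37 values and gained in 56, and 1 reversed. With deposited log2 intensity 2 collagen genes were lower in Snf5-/-, 1 was higher and 10 were lower in Brg1-/-, and 8 were lower in Brg1-/- than in Snf5-/-; Col5a1 in Brg1-/- turned from 0.02 to -0.66. With arrays centred on their median 5 collagen genes were lower in Brg1-/-, and with no intensity trend 1 was. With the replicate number as a block, which gives the unpaired Brg1-/- replicate 4 no weight, 6 were lower in Brg1-/- than in wild type and 8 than in Snf5-/-. The labels say nothing of pairs, and the cause was not tested. For median centring, no intensity trend and the block, the share over all genes tested was not counted. Those numbers therefore cannot be read as particular to collagens. Leaving out 1 array at a time gave 7 to 12 collagen genes higher and 1 lower in Snf5-/-, 2 to 4 higher and 0 to 5 lower in Brg1-/-, and 2 to 8 lower in Brg1-/- than in Snf5-/-, with 0 without wild type replicate 2 and 5 and 8 without Brg1-/- replicate 4. Collagen genes called in any of the 3 comparisons then numbered 9 to 16, against 12 with all arrays. For the pathway lists only the comparisons with wild type were counted. Called genes there numbered 11 to 15 in biosynthesis, 1 to 2 among receptors and 7 to 11 among regulators, against 14, 2 and 10 with all arrays. Shares over all genes tested are given above for the fit without Brg1-/- replicate 4 and were not counted for the others. The calls of Col11a1, Col18a1, Col3a1, Col5a3, Col2a1 and Col12a1 in Snf5-/-, of Col11a1 in Brg1-/-, and of Col18a1 and Col1a2 between the mutants held under all 19 alternatives. Dim probe sets limit 10 collagen genes, which were not tested.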

Other observations

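Without the filter on low intensity, Col15a1, which encodes a basement membrane collagen related to type XVIII, had a log2 change of 1.68 ± 0.43 (SE) in Brg1-/- against wild type (limma adjusted p = 0.0205). It measured 27.9, 18.7 and 13.99 over the wild type arrays, 36.3, 27.2 and 37.5 over those of Snf5-/-, and 41.3, 63.1, 62.1 and 91.3 over those of Brg1-/-. Of these arrays 2 of wild type, 2 of Snf5-/- and 1 of Brg1-/- lay at or below background, so the size of the change is uncertain.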
